A study of Mus musculus with 48 samples.

Results

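The lysosomal genes of splenic monocytes, pre-red pulp macrophages (pre-RPMs), and red pulp macrophages (RPMs) were examined as a set of 50 genes out of the 54735 listed for each RNA-seq library. The genes were taken by name, and each name was found once. They comprise 9 cysteine proteases, 3 aspartic and serine proteases, 12 enzymes that break down glycans and glycosaminoglycans, 6 genes of sphingolipid breakdown, 4 genes that handle sterols, neutral lipids, and phospholipids, 4 other hydrolases, 9 membrane proteins, and 3 transcription factors. Each of 4 wild-type (WT) mice and 4 mice labelled IL1RL1-/- gave 1 library for each of 3 cell types, or 24 libraries in 6 groups. All mice were 10-week-old males of the Balb/c strain. IL1RL1 is the receptor of interleukin-33, and the label IL1RL1-/- denotes a knockout of it. Monocytes were sorted from spleen as Ly6Glo CD11bhi F4/80- cells, pre-RPMs as Ly6Glo CD11bhi F4/80lo cells, and RPMs as Ly6Glo CD11blo/- F4/80hi cells.

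Lysosomes are acidic organelles in which hydrolases degrade proteins, glycans, lipids, and nucleic acids that reach the cell by phagocytosis or autophagy. RPMs engulf aged erythrocytes and digest them in lysosomes, from which iron is returned to the cytoplasm. The transcription factors TFEB, TFE3, and MITF belong to 1 family and bind E-box motifs found in the promoters of many lysosomal genes, and TFEB and TFE3 are held in the cytoplasm when the kinase complex mTORC1 is active at the lysosomal surface.

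Total counts lay between 3562367 and 6559454 per library, and a single non-coding gene, Gm42418, took 24.4% to 38.8% of them. Reads on Il1rl1 were found in every library. In libraries labelled IL1RL1-/- they reached 14.1 ± 1.44 CPM in monocytes and 12.3 ± 0.463 in pre-RPMs (the count scaled to a common library size, mean ± SD, n = 4). WT libraries had fewer, at 3.19 ± 1.05 and 4.26 ± 1.06 CPM (n = 4), although the label IL1RL1-/- denotes a knockout. RPMs were low in both, at 0.826 ± 0.482 CPM in libraries labelled IL1RL1-/- and 1.94 ± 0.8 in WT libraries (n = 4). Counts were joined over the exons of each gene, so they do not show which part of Il1rl1 was read. Genotypes are therefore given as labelled. The summed CPM of 12 RPM markers, Spic and Vcam1 among them, was 6726 to 9414 in RPMs, 153 to 354 in pre-RPMs, and 44.3 to 117 in monocytes. The 12 monocyte markers summed to 1493 to 3637 CPM in WT monocytes, 2876 to 4164 in WT pre-RPMs, and 1444 to 1664 in WT RPMs. Those sums were 1941 to 4093, 3496 to 4349.7, and 1579 to 1803 CPM in libraries labelled IL1RL1-/-. Among monocyte libraries they were lowest in mice 1 and 2 of either genotype. Markers of other cells also differed between the sorted populations. The 8 natural killer (NK) cell markers summed to 488 to 1830 CPM in monocytes, 14.4 to 139 in pre-RPMs, and 8.33 to 43.1 in RPMs, and were highest in the monocyte libraries of mice 1 and 2 of either genotype. The 8 erythroid markers summed to 896 to 24143 CPM in RPMs, highest in mice 3 and 4 of either genotype, and to 11.3 to 639 CPM in pre-RPMs. The 7 endothelial or stromal markers summed to 289.8 to 362 CPM in RPMs and 11.5 to 22.3 in pre-RPMs. In each genotype, 2 of these 7 were tested, and both were higher in RPMs. Sums of the 13 neutrophil markers were 919 to 2744 CPM in monocytes and 278 to 639 in pre-RPMs. Those of the 6 plasma cell markers were 1123 to 5132 in monocytes and 204 to 996 in pre-RPMs. The part of these cells in the values of the lysosomal genes was not tested, other than by leaving out libraries. In bulk RNA, fewer cells of a type and less RNA per cell cannot be told apart.

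The 50 lysosomal genes together amounted to 2606 to 5191 CPM in WT monocytes, 4638 to 6229 in WT pre-RPMs, and 7306 to 9282 in WT RPMs. In the libraries labelled IL1RL1-/- the sums were 2784 to 5140 CPM in monocytes, 5720 to 6575 in pre-RPMs, and 8985 to 9857 in RPMs. RPM libraries lay above every pre-RPM library in both genotypes, whereas WT monocytes and pre-RPMs overlapped, with the lowest sums in the monocytes of mice 1 and 2. Per length, the summed level in RPMs was 1.51 ± 0.145 times that in pre-RPMs of the same WT mouse (mean ± SD, n = 4), and 1.51 ± 0.11 times in the mice labelled IL1RL1-/-. When scaled as TPM, which divides by the length-corrected total of the library, without Gm42418, these ratios were 2.07 and 1.89, and the ratio of WT pre-RPMs to monocytes was 1.03 in place of 1.64 ± 0.483.

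**Figure D1:**
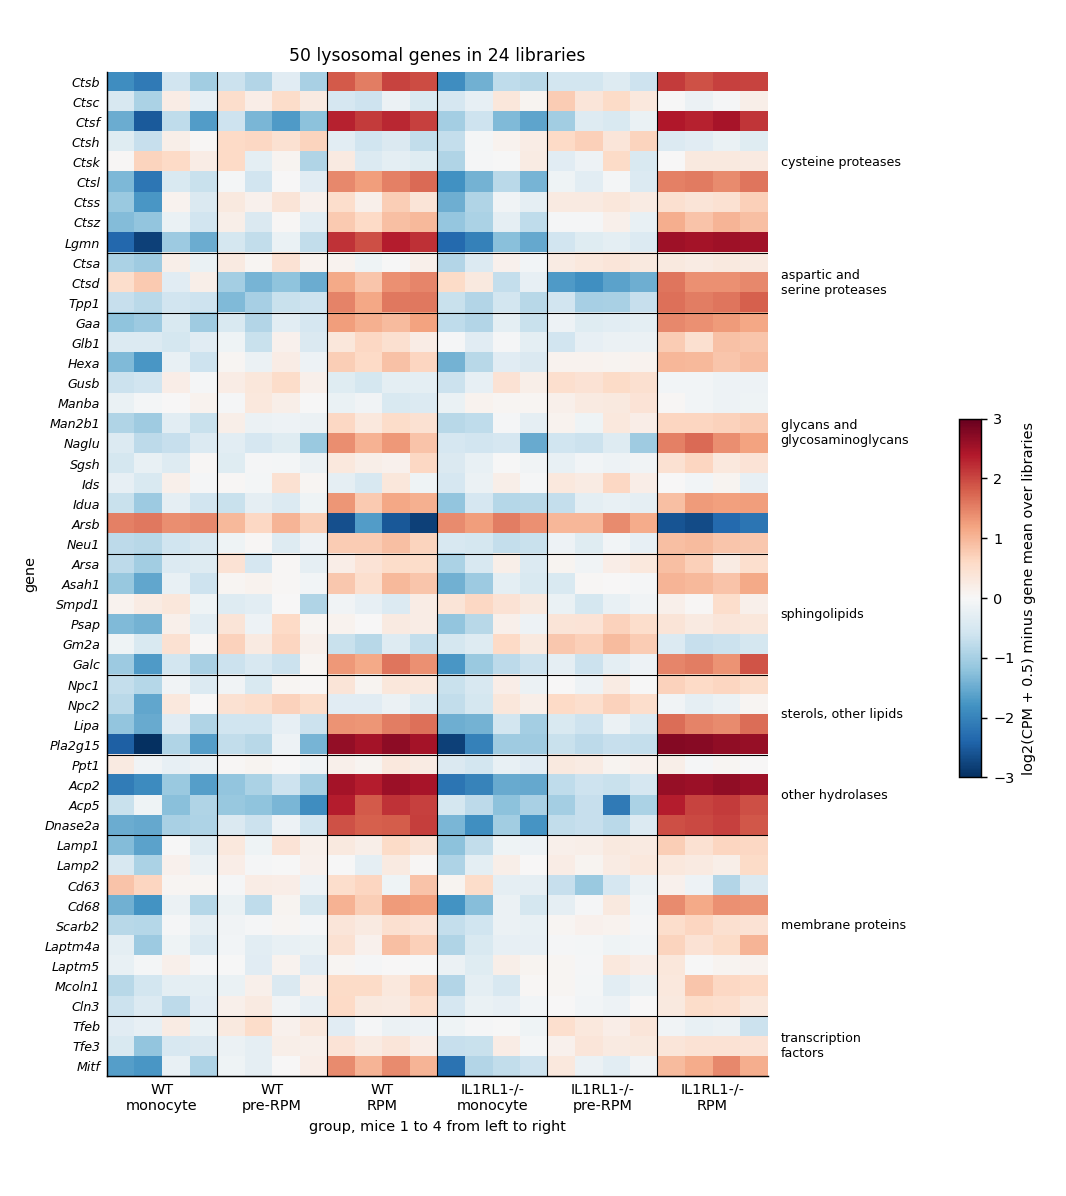
Level of each of the 50 lysosomal genes (rows, by role) in each of the 24 libraries (columns, by group and mouse), as log2(CPM + 0.5) minus the gene's mean over all libraries, with red for higher and blue for lower. Ctsb, Ctsf, Lgmn, Pla2g15, Acp2, Acp5, and Dnase2a were highest in all 8 RPM libraries and Arsb lowest, and many genes were lowest in the monocytes of mice 1 and 2.

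Psap, which encodes the precursor of the saposins that present sphingolipids to their hydrolases, had the highest level per length over all libraries (495 CPM per kb of exon), followed by the proteases Ctss (353) and Ctsb (146). The lowest was Ctsk (0.317 CPM per kb), the collagen-degrading cathepsin of osteoclasts, with between 0 and 5 counts in each of the 24 libraries, so that no change in it was detectable at this depth. In WT RPMs, the mean level per length was highest for Psap (515 CPM per kb) and Ctss (449), followed by Ctsb (319.9), Cd68 (177), Lgmn (125), Ctsz (115), and Laptm5 (109).

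Of 49 genes tested in WT mice, 17 were higher and 3 lower in RPMs (adjusted p under 0.01 and absolute log2 fold change above 1, edgeR's quasi-likelihood F test with Benjamini-Hochberg adjustment over all genes), whereas 14.0% of the 11239 genes tested were higher and 10.7% lower. The median log2 fold change of the 49 genes was 0.53 and that of all genes tested was near 0. In the mice labelled IL1RL1-/-, 20 of 49 were higher and 2 lower, against 14.5% and 11.5% of 11437 genes. All 8 erythroid markers were also higher in RPMs of both genotypes. The summed CPM of 9 eosinophil markers was 293 to 426 in RPMs and 76.1 to 159.6 in pre-RPMs, but its members went both ways. In WT mice, of 4 eosinophil markers tested, 1 passed as higher and 1 as lower. In mice labelled IL1RL1-/-, of 5 tested, 1 passed as higher and 2 as lower. The 8 T cell markers summed to 46 to 109 CPM in RPMs and 12.3 to 30.5 in pre-RPMs. Of these, 3 of 5 tested passed as higher in WT mice and 1 of 4 in mice labelled IL1RL1-/-, with none lower. The part of these cells was not tested. The RPM libraries of mice 3 and 4, in which the erythroid marker sums were highest, were left out. Then 17 lysosomal genes were higher and 4 lower in WT mice, and 19 higher and 3 lower in mice labelled IL1RL1-/-. This step could not remove the erythroid difference. RPMs of mice 1 and 2 still had erythroid sums of 2042 and 1373 CPM in WT mice and 2826 and 896 in those labelled IL1RL1-/-. Pre-RPMs of these mice had 11.3 to 12.4 CPM. When a fold change above 2 itself was tested, 14 were higher and 1 lower in WT mice.

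**Figure D2:**
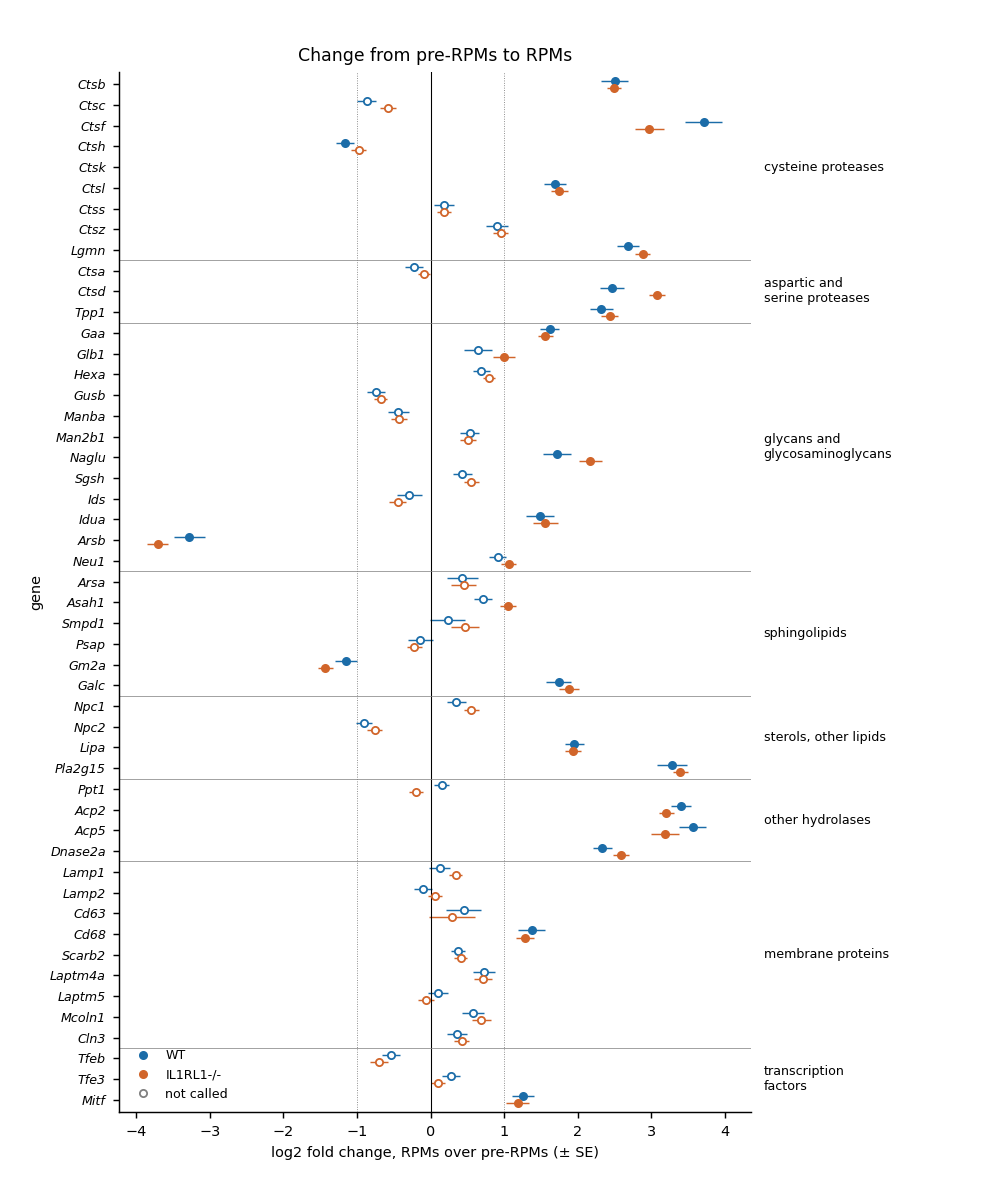
Log2 fold change from pre-RPMs to RPMs of 49 lysosomal genes, by role, in WT mice (blue) and in mice labelled IL1RL1-/- (orange), with bars for the SE, filled points for genes called, and dotted lines at log2 fold changes of -1 and 1. Acp5, Acp2, Pla2g15, and Ctsf lie farthest to the right in WT mice and Arsb farthest to the left, and Ctsk was not tested.

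Among the cysteine proteases, which hydrolyse proteins in the lysosome and process antigens, 4 of 8 tested were higher in WT RPMs, 1 was lower, and the median log2 fold change was 1.30. Ctsb, encoding cathepsin B, had 342, 294, 421, and 274 CPM in pre-RPMs of WT mice 1 to 4 and 1924, 1549, 2197, and 2073 CPM in RPMs. The log2 fold change was 2.50 (SE 0.18, adjusted p = 3.43e-08), and every RPM library lay above every pre-RPM library. Lgmn, the asparaginyl endopeptidase that cleaves other cathepsins into their mature forms, had 44, 38.3, 55.4, and 37.9 CPM in WT pre-RPMs and 289, 246, 327, and 296 CPM in WT RPMs, which gave 2.68 (SE 0.15, adjusted p = 3.34e-09) on the log2 scale. Ctsf rose from 2.09, 1.05, 0.736, and 1.19 CPM, which are counts of 9, 4, 3, and 5, to 19.3, 16.5, 18.7, and 15.9 CPM, with a log2 fold change of 3.71 (SE 0.25, adjusted p = 2.66e-08). Its size depends on few reads in pre-RPMs, though the groups did not overlap. Ctsl, encoding cathepsin L, rose by 1.69 (SE 0.15) on the log2 scale.

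Not all cathepsins followed this direction. Ctsh, an aminopeptidase, fell in WT RPMs, with a log2 fold change of -1.16 (SE 0.12, adjusted p = 1.26e-06). Ctsc, which activates serine proteases of granules, had -0.87 (SE 0.13) and Ctsz, a carboxypeptidase, 0.90 (SE 0.15), and both stayed within the fold threshold, though Ctsz passed without the WT pre-RPMs of mouse 1 and Ctsc without the RPMs of mice 3 and 4. Ctss, encoding cathepsin S, which trims the invariant chain of MHC class II, had 544, 483, 579.6, and 482 CPM in WT pre-RPMs and 637, 494, 732, and 576 CPM in WT RPMs. These groups overlapped and the log2 fold change was 0.18 (SE 0.14, adjusted p = 0.323). Ctss in mice labelled IL1RL1-/- had 532, 528, 555, and 523 CPM in pre-RPMs and 616, 580, 601, and 727 CPM in RPMs.

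Of the 3 aspartic and serine proteases, Ctsd and Tpp1 rose and Ctsa did not pass the test (log2 fold change -0.23, SE 0.12). Ctsd encodes cathepsin D, the main aspartic protease of lysosomes. It had 43, 33.1, 37.8, and 30.7 CPM in pre-RPMs of WT mice 1 to 4 and 192, 157, 228, and 244 CPM in their RPMs, with no overlap (log2 fold change 2.46, SE 0.16, adjusted p = 1.65e-08). In the mice labelled IL1RL1-/- it had 26.7, 23.9, 28.3, and 31.3 and 268, 227, 228, and 237 CPM, which differed by 3.07 (SE 0.11, adjusted p = 3.68e-12) on the log2 scale. Gm49369, which had 0 counts in every library, shares 34.37% of the exon bases of Ctsd on the same strand, and reads there are assigned to neither gene, so that the level of Ctsd is a lower estimate in all groups. Tpp1, a tripeptidyl peptidase, had 10.9, 13.9, 17.4, and 18.1 CPM in WT pre-RPMs and 79.6, 63.1, 84.2, and 85.4 CPM in WT RPMs (log2 fold change 2.32, SE 0.16, adjusted p = 2.45e-08).

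Of the level per length summed over 10 cathepsin genes, Ctss made up 64.3% ± 1.17 in WT pre-RPMs and 43.1% ± 2.45 in WT RPMs (mean ± SD, n = 4). Ctsb made up 9.13% ± 0.899 and 30.7% ± 0.909, and Ctsd 2.57% ± 0.225 and 8.37% ± 0.923. In the mice labelled IL1RL1-/-, the shares in pre-RPMs and RPMs were 63.6% ± 0.51 and 40.8% ± 2.57 for Ctss and 9.95% ± 0.338 and 31.8% ± 1.17 for Ctsb. The ranges of the 2 cell types did not overlap for any of these shares. The shares depend on the exon length used for each gene, 1358 bases for Ctss and 6051 for Ctsb. Without division by length, mean CPM in WT pre-RPMs was 522 for Ctss and 333 for Ctsb. In WT RPMs the order was reversed, with 609.7 for Ctss and 1936 for Ctsb. In WT monocytes the shares spread more widely, with Ctss at 50.7%, 39.9%, 61.5%, and 56.3% and Ctsd at 18.3%, 26.2%, 5.15%, and 9.76% in mice 1 to 4.

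**Figure D3:**
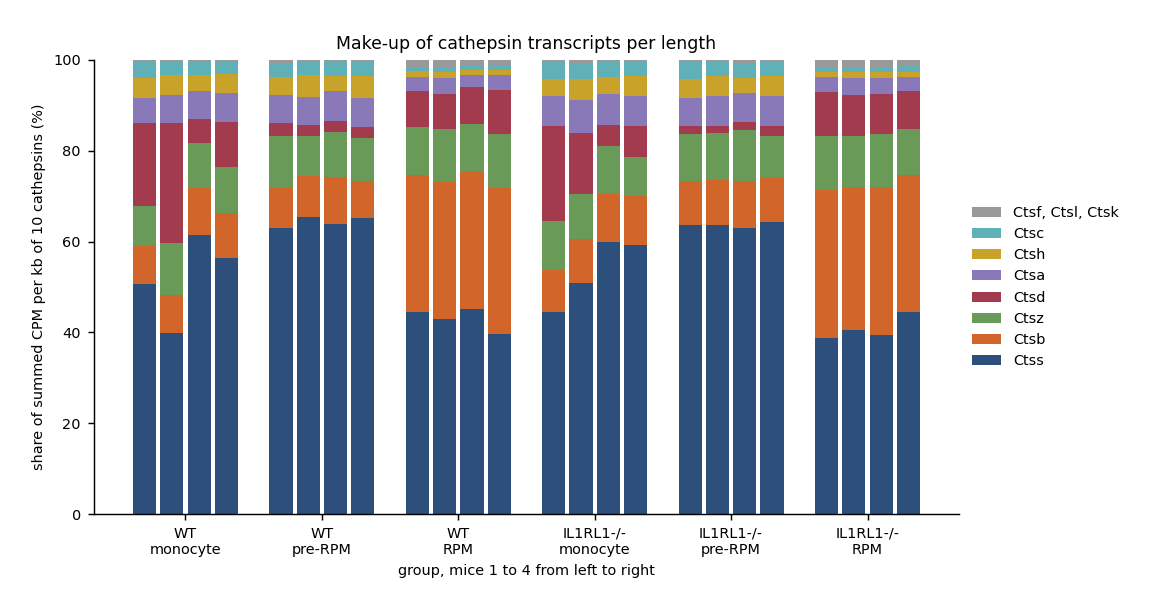
Share (%) of each cathepsin gene in the summed CPM per kb of 10 cathepsin genes, 1 bar for each library, mice 1 to 4 from left to right in each group. On this scale per length, Ctss (dark blue) took the largest share in all groups. Ctsb (orange) took about 30% to 33% in RPMs and 8% to 11% elsewhere, and Ctsd (red) varied most between the monocyte libraries.

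Among 12 enzymes of glycan and glycosaminoglycan breakdown, 3 rose in WT RPMs and 1 fell. Gaa, the acid alpha-glucosidase that degrades glycogen, had 19.5, 14.4, 21.6, and 18.8 CPM in WT pre-RPMs and 64.8, 56.6, 52.6, and 62.8 CPM in WT RPMs (log2 fold change 1.62, SE 0.13, adjusted p = 1.14e-07). Naglu, which takes part in heparan sulfate breakdown, had 8.14, 7.09, 7.85, and 4.52 and 27.7, 21.8, 25.9, and 18.9 CPM (log2 fold change 1.72, SE 0.19, adjusted p = 4.18e-06). Idua, the alpha-L-iduronidase, rose by 1.49 (SE 0.19) on the log2 scale. The fall was that of Arsb, the sulfatase of dermatan and chondroitin sulfate. It had 155, 162, 144, and 149 CPM in monocytes of WT mice 1 to 4, 107, 83.8, 111, and 91.2 in their pre-RPMs, and 8.25, 16.7, 8.82, and 7.39 in their RPMs. The log2 fold change from pre-RPMs to RPMs was -3.28 (SE 0.21, adjusted p = 1.21e-08), and the highest RPM library, that of mouse 2, was far under the lowest pre-RPM library. Arsb in mice labelled IL1RL1-/- had 109, 109, 146, and 118 CPM in pre-RPMs and 8.52, 8.01, 10.3, and 11.5 in RPMs. The remaining 8 enzymes had log2 fold changes between -0.74 (Gusb) and 0.91 (Neu1), and Hexa, the alpha subunit of beta-hexosaminidase, had 0.69 (SE 0.12). Glb1 and Neu1, the beta-galactosidase and the sialidase that form a complex with cathepsin A, passed in the mice labelled IL1RL1-/-, at 1.00 (SE 0.15) and 1.06 (SE 0.10). With the mouse as a block, Glb1 no longer passed there (0.99, adjusted p = 4.73e-05), nor did it without the pre-RPMs of mouse 1 or the RPMs of mouse 1, 3, or 4, and Neu1 did not pass without the pre-RPMs of mouse 2.

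Of 6 genes of sphingolipid breakdown, Galc rose and Gm2a fell in WT RPMs. Galc, which removes galactose from galactosylceramide, had 13.3, 15, 13.2, and 22.1 CPM in WT pre-RPMs and 52.7, 47, 64.7, and 55.2 CPM in WT RPMs (log2 fold change 1.74, SE 0.17, adjusted p = 7.53e-07). Gm2a, the activator that presents the ganglioside GM2 to beta-hexosaminidase, had 305, 226, 296, and 208 CPM in WT pre-RPMs and 118, 106, 143, and 115 CPM in WT RPMs, with no overlap (log2 fold change -1.15, SE 0.15, adjusted p = 1.93e-05). Psap had 1667, 1134, 1928, and 1328 and 1359, 1285, 1537, and 1470.2 CPM, which overlapped, with a log2 fold change of -0.14 (SE 0.17, adjusted p = 0.506). Asah1, the acid ceramidase, passed in the mice labelled IL1RL1-/- (1.05, SE 0.11, adjusted p = 1.41e-06) but not without the pre-RPMs of mouse 1 or the RPMs of mouse 4. It lay within the fold threshold in WT mice (0.71, SE 0.12), and the difference between these changes did not pass (0.35, SE 0.17, adjusted p = 0.66).

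Among the lipid-handling genes, Pla2g15 and Lipa rose, and Npc1 and Npc2 had opposite signs. Pla2g15, the lysosomal phospholipase A2, had 19.3, 17.9, 29.2, and 11.9 CPM in pre-RPMs of WT mice 1 to 4 and 203, 186, 212, and 184 CPM in their RPMs (log2 fold change 3.28, SE 0.20, adjusted p = 8.61e-09). Lipa, the acid lipase that hydrolyses cholesteryl esters and triglycerides, had 49.3, 49.1, 62.5, and 47.6 and 191, 186, 218, and 233 CPM (log2 fold change 1.95, SE 0.13, adjusted p = 1.83e-08). In neither gene did the cell types overlap. The cholesterol carriers that export sterol from the lysosome stayed within the fold threshold, Npc1 at 0.35 (SE 0.13) and Npc2 at -0.91 (SE 0.11).

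Of the other hydrolases, 3 of 4 rose in WT RPMs, each of them also when a fold change above 2 itself was tested. Acp2, a lysosomal acid phosphatase, had 15.1, 17.9, 22.6, and 17.1 CPM in WT pre-RPMs and 201, 181, 212, and 199 CPM in WT RPMs (log2 fold change 3.40, SE 0.14, adjusted p = 2e-10). Acp5, the tartrate-resistant acid phosphatase that contains iron, had 5.82, 5.51, 4.9, and 3.33 and 71.1, 49, 61.5, and 57.2 CPM (log2 fold change 3.56, SE 0.18, adjusted p = 1.04e-09). Dnase2a, the acid nuclease that degrades the DNA of engulfed cells and of expelled erythroid nuclei, had 17.9, 15.5, 22.1, and 16 and 93.5, 86.7, 87.6, and 104 CPM (log2 fold change 2.33, SE 0.13, adjusted p = 2.76e-09). Ppt1, which removes palmitate from proteins, had 0.15 (SE 0.10) and did not pass.

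Of 9 membrane proteins tested, Cd68, the glycosylated macrophage protein of endosomes and lysosomes, was the 1 that rose, from 90.5, 60.9, 110.1, and 71.9 CPM in WT pre-RPMs to 215, 175, 255, and 246 CPM in WT RPMs (log2 fold change 1.37, SE 0.18, adjusted p = 1.64e-05). Lamp1 and Lamp2, the abundant proteins of the lysosomal membrane, had 0.12 (SE 0.14) and -0.10 (SE 0.12). Laptm5 had 0.10 (SE 0.13), and the calcium channel gene Mcoln1 had 0.57 (SE 0.15). The log2 fold changes of the group lay between -0.10 and 1.37, with a median of 0.37.

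**Figure D4:**
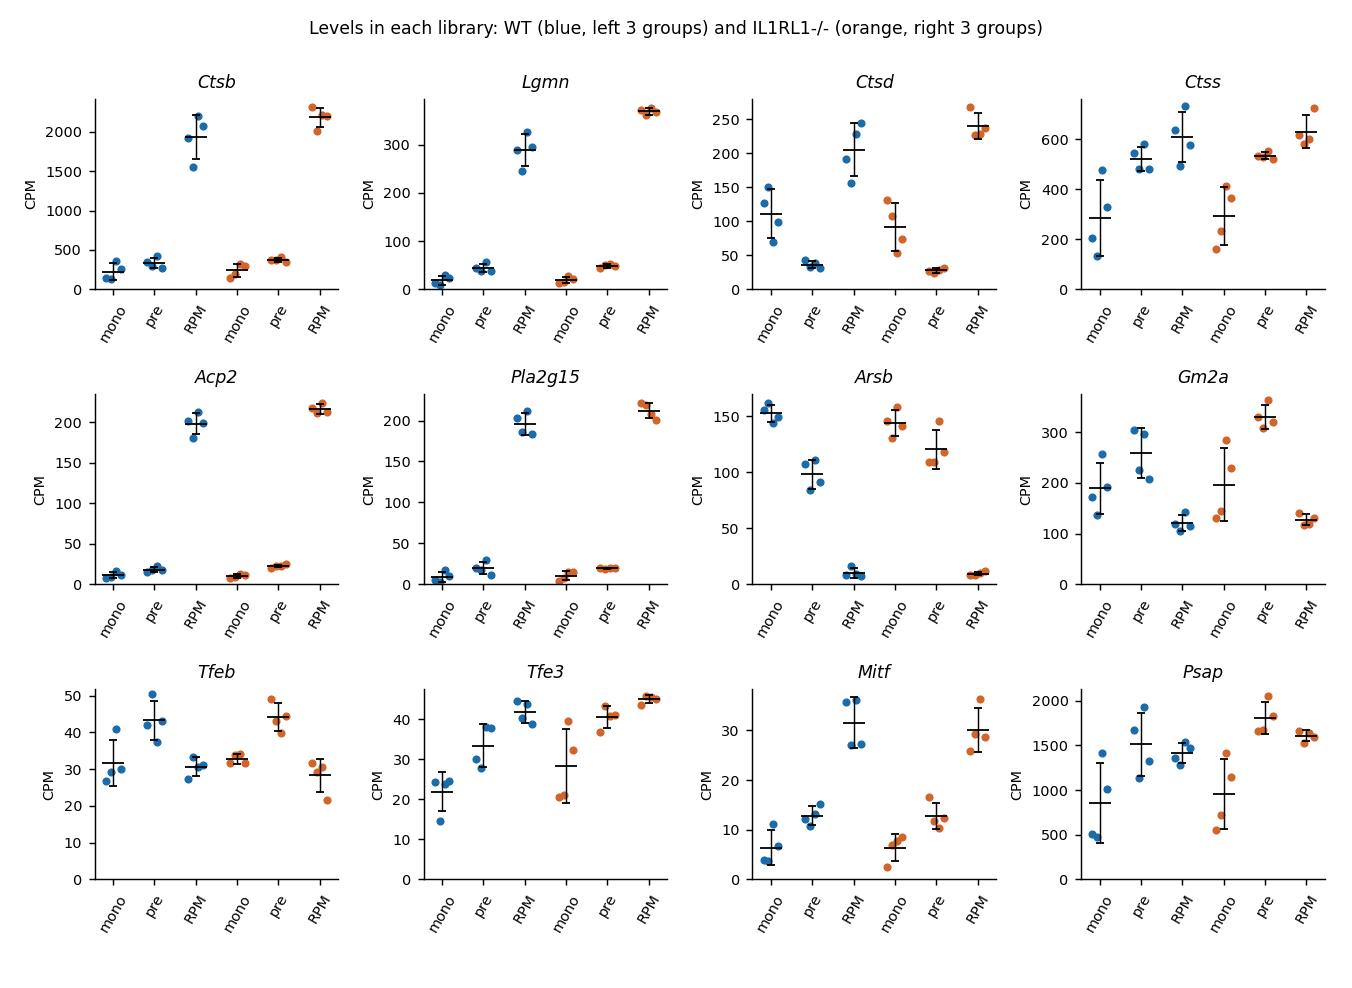
CPM of 12 lysosomal genes in each library, by cell type (WT mice in blue and mice labelled IL1RL1-/- in orange), with the mean and SD (n = 4) in black. Ctsb, Lgmn, Acp2, and Pla2g15 were several-fold higher in RPMs than in other cells, Arsb was near 10 CPM in RPMs, Ctsd was lowest in pre-RPMs, and Tfeb was highest in pre-RPMs.

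The 3 transcription factors differed in direction. Mitf rose, with 12.1, 10.8, 13.2, and 15.2 CPM in pre-RPMs of WT mice 1 to 4 and 35.8, 27.1, 36.1, and 27.2 CPM in their RPMs (log2 fold change 1.25, SE 0.15, adjusted p = 1.03e-05), and with no overlap. Tfeb had 42.1, 50.4, 37.5, and 43.1 CPM in WT pre-RPMs and 27.3, 33.4, 30.7, and 31.2 CPM in WT RPMs, also without overlap, and its log2 fold change of -0.54 (SE 0.12, adjusted p = 0.00166) stayed within the fold threshold. Tfe3 had 30, 27.8, 38.2, and 37.9 and 44.7, 40.3, 43.8, and 38.8 CPM (log2 fold change 0.28, SE 0.12, adjusted p = 0.0738). Corresponding log2 fold changes in mice labelled IL1RL1-/- were 1.18 (SE 0.15) for Mitf, -0.70 (SE 0.12) for Tfeb, and 0.10 (SE 0.09) for Tfe3. Of the summed level per length of the 3 genes, Tfeb made up 57.3% ± 6.14 in WT pre-RPMs and 36.1% ± 4.26 in WT RPMs, and Mitf 15.5% ± 2.03 and 33.8% ± 3.75 (mean ± SD, n = 4). The transcript level does not show where the proteins were in the cell.

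The promoters of the lysosomal genes were searched for the E-box letters that this family binds, since Mitf and many members rose together. Promoters, from 250 bases before to 50 after the start of transcription, were found for 46 of the 50 genes among 32851 RefSeq promoters of GRCm38.p6. None was found for Npc1, Ctsh, Asah1, and Ctsb. Ctsb, which rose in WT RPMs, and Ctsh, which fell, are therefore absent from the counts of genes with and without a motif. TCACGTG or its reverse complement CACGTGA was present in 11 of the 46 genes (23.9%) and in 4.29% of all 27025 gene symbols with a promoter (3.77% of all promoters). The 8 letters TCACGTGA, which contain both, were present in 4 (Ctsa, Ctsd, Mcoln1, and Cln3) and in 1.12% of all symbols (0.974% of all promoters). TCATGTG or CACATGA, the other form bound by MITF, was present in 6 genes and in 4.31% of all symbols (3.77% of all promoters). Shown are 30 bases, read 5′ to 3′ on the strand of the gene with the motif in capitals, for 6 named genes that rose in RPMs, for Ctss, and for Mcoln1 and Cln3, which hold the 8 letters and stayed within the fold threshold.
Lgmn (chr12:102439125-102439154, minus strand): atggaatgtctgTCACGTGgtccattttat
Ctsd (chr7:142387908-142387937, minus strand): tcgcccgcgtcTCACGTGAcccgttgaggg
Gaa (chr11:119267810-119267839, plus strand): ttttctgtgcgaTCACGTGtttgactctga
Naglu (chr11:101070008-101070037, plus strand): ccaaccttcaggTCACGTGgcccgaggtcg
Mcoln1 (chr8:3500462-3500491, plus strand): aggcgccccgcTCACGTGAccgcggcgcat
Cln3 (chr7:126583340-126583369, minus strand): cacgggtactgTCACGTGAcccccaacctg
Tpp1 (chr7:105752214-105752243, minus strand): gccagaccatgcTCATGTGActtatcacat
Acp5 (chr9:22130671-22130700, minus strand): aagtccagtgcTCACATGAcccaaggggag
Ctss (chr3:95526792-95526821, plus strand): attgtggatgctTCATGTGAcaagctccga

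Of the 11 genes with TCACGTG in the promoter, 4 rose from WT pre-RPMs to RPMs (Lgmn, Ctsd, Gaa, and Naglu) and none fell, and their median log2 fold change was 0.57. Of the 34 tested genes with a promoter but without these letters, 12 rose and 2 fell, with a median of 0.49. Acp2, Pla2g15, and Lipa, which rose, had neither TCACGTG nor TCATGTG in this window. The letters were therefore found in genes that rose and in genes that did not, and a match is not evidence of binding.

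Of 48 lysosomal genes tested between monocytes and pre-RPMs of WT mice, none was higher in pre-RPMs and 1, Ctsd, was lower, whereas 0.316% of all 11091 genes tested were higher and 3.25% lower. At an unadjusted p under 0.05 there were 32 of 48, against 31.9% of all genes, and the median log2 fold change was 0.54, against 0.01 for all genes. A rise from monocytes to pre-RPMs depended on the scaling, since the summed level rose less when scaled as TPM, as stated above. The rise from pre-RPMs to RPMs was larger on that scale, and single genes were not tested on it. DESeq2 called 1 gene higher (Lgmn), and the same gene passed with the mouse as a block (1.36, edgeR's adjusted p = 0.00539). Ctsd had 127, 151, 69.1, and 98.4 CPM in monocytes of WT mice 1 to 4 and 43, 33.1, 37.8, and 30.7 in their pre-RPMs (log2 fold change -1.63, SE 0.22, adjusted p = 0.00106), so that the lowest monocyte library was above the highest pre-RPM library. Together with its rise in RPMs, pre-RPMs held the lowest level of the 3 cell types. Ctsd in mice labelled IL1RL1-/- had 131, 108, 53.4, and 73.3 CPM in monocytes (log2 fold change to pre-RPMs -1.73, SE 0.24, adjusted p = 0.000603).

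The monocyte libraries were uneven. Ctss had 204, 132, 477, and 328 CPM in the monocytes of WT mice 1 to 4 and 159.7, 234, 412, and 364 in those labelled IL1RL1-/-, lowest in mice 1 and 2 of either genotype. Psap ranged from 471 CPM in WT mouse 2 to 1417 in WT mouse 3 and had 553, 715, 1410.4, and 1145 CPM in mice labelled IL1RL1-/-, again lowest in mice 1 and 2, while Ctsd was highest in mice 1 and 2. The NK marker sums of these libraries were 1571, 1830, 552, and 1021 CPM in WT mice 1 to 4 and 1508, 1138, 488, and 778 CPM in those labelled IL1RL1-/-, with none of the 8 markers at 0 in monocytes and Klra8 at 0 in pre-RPMs and RPMs. Without the monocytes of mice 1 and 2, the log2 fold change to WT pre-RPMs was 0.38 for Ctss in place of 0.87, 0.32 for Psap in place of 0.83, and -1.22 (edgeR's adjusted p = 0.000391) for Ctsd, which still passed. Without the WT monocyte library of mouse 3, in which most members were highest, 10 genes were called higher, Ctss, Psap, Lamp1, Cd68, and Mitf among them. The part of NK cells in these values was not tested beyond this.

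In the mice labelled IL1RL1-/-, 3 of 49 genes were higher in pre-RPMs than in monocytes and 1 lower, against 0.974% and 3.88% of all 11196 genes. The 3 were Lgmn (1.34, SE 0.19, adjusted p = 0.000732), Acp2 (1.18, SE 0.17, adjusted p = 0.000724), and Ctsl (1.15, SE 0.22, adjusted p = 0.00464), by edgeR's test. Without the monocytes of mice 1 and 2 the log2 fold changes were 0.98, 0.91, and 0.88, and none of the 3 passed. Ctsl also did not pass without any single pre-RPM library or without the monocytes of mouse 1, 2, or 4, whereas without the monocytes of mouse 3 the genes Ctss, Psap, Dnase2a, and Cd68 passed too. With the mouse as a block, Psap passed as well (1.01, edgeR's adjusted p = 0.000741). From WT monocytes to RPMs, 24 of 49 genes were higher and 1, Arsb, was lower, against 13.4% and 10.5% of all 11607 genes tested, and with the mouse as a block Ctss (1.22) and Lamp1 (1.16) were called higher too. Without the monocytes of mice 1 and 2, Mcoln1, Man2b1, Laptm4a, and Arsa no longer passed and 21 genes were higher, and without the RPMs of mice 3 and 4, Hexa, Laptm4a, and Arsa no longer passed and 22 were higher. When a fold change above 2 itself was tested, 17 were higher. The largest differences were those of Pla2g15 (4.45, SE 0.39) and Ctsf (4.25, SE 0.33), the latter from counts of 6, 1, 8, and 5 in monocytes.

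Between genotypes, no lysosomal gene passed in any cell type without the mouse number as a block, and with it 1 gene, Gm2a, passed in pre-RPMs. In monocytes, 0 of 48 genes tested passed an adjusted p under 0.05 by edgeR and by DESeq2, beside 0.0614% of all 11405 genes, and 1 had an unadjusted p under 0.05 (3.59% of all genes). In pre-RPMs, 0 of 48 passed by both tools, beside 0.552% of all 10698 genes, and 7 had an unadjusted p under 0.05 (8.8% of all genes), or by DESeq2 5. When single libraries were left out, this count lay between 3 (without WT mouse 2) and 14 (without WT mouse 3), with 4 without WT mouse 4 or mouse 4 labelled IL1RL1-/-, and it was 13 with the block. In RPMs, 0 of 49 passed by both tools, beside 0.233% of all 11150 genes, and 11 had an unadjusted p under 0.05 (7.27% of all genes), or by DESeq2 10. Here the count lay between 5 (without WT mouse 2) and 15 (without WT mouse 3), with 7 without mouse 1 or 3 labelled IL1RL1-/-. The comparison was least precise in monocytes, where the median SE of the log2 difference was 0.26, and it was 0.12 for pre-RPMs and 0.11 for RPMs. No member passed the test of whether the change between cell types differed by genotype (0 of 49 for each interaction by edgeR and by DESeq2). The values that follow are for monocytes to pre-RPMs and pre-RPMs to RPMs, in that order. Of all genes, edgeR called 0.0% and 0.107%. At an unadjusted p under 0.05 there were 2 and 3 members, beside 3.8% and 7.52% of all genes. Members had a median SE of 0.29 and 0.17, with estimates of -0.36 to 0.53 and -0.72 to 0.62.

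In RPMs, 42 of 49 lysosomal genes had a log2 difference above 0 in the libraries labelled IL1RL1-/-, or 85.7%, beside 49.7% of all genes tested. The median difference was 0.14, with a value near 0 for all genes, and 42 to 45 genes were above 0 with other size factors, filters, or tools and 38 to 43 when a single library was left out. For 6 genes (Ctsc, Lgmn, Ctsa, Gusb, Man2b1, and Npc1) each library labelled IL1RL1-/- lay above each WT library, a pattern of 2.6% of all genes, and no member showed the reverse, which 1.73% of all genes did. Lgmn had 289, 246, 327, and 296 CPM in WT RPMs and 373, 361, 377, and 367 CPM in RPMs labelled IL1RL1-/- (log2 difference 0.34, SE 0.10, adjusted p = 0.428). Ctsc had 57.1, 52.9, 71.9, and 59.1 and 80, 72.4, 78.9, and 91.6 CPM (log2 difference 0.42, SE 0.11, adjusted p = 0.322). The RPM marker sums moved in the same direction, at 7759, 6726, 8465, and 8579.7 CPM in WT RPMs and 9278, 9242, 9093, and 9414 CPM in those labelled IL1RL1-/-, and their part in these values was not tested. The negative extreme was Cd63, a tetraspanin, with 7.83, 8.55, 4.81, and 9.93 and 5.83, 4.74, 2.63, and 3.83 CPM (log2 difference -0.88, SE 0.28, adjusted p = 0.45).

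In pre-RPMs the median difference was 0.10, with 35 of 48 members above 0 (49.5% of all genes), and in monocytes 0.06, with 33 of 48 (48.9%), and in monocytes the median took either sign when single libraries were left out (from -0.06 to 0.23). In pre-RPMs, Gm2a and Ppt1 were higher and Cd63 lower without overlap between genotypes (2.42% and 2.55% of all genes), and in monocytes Glb1 was higher (1.08%, with 1.26% lower). Other markers also differed by genotype in pre-RPMs. NK markers summed to 67.1 to 139 CPM in WT mice and 14.4 to 51.6 in mice labelled IL1RL1-/-. Basophil or mast cell markers had 11.3 to 57.9 and 3.31 to 5.09, and dendritic cell markers 50.5 to 107 and 110.1 to 146. Of markers tested, 3 of 4 NK, 2 of 7 B cell, and 1 of 2 basophil or mast cell markers were called lower. Of 5 dendritic cell markers tested, 1 was called higher. Their part was not tested. Gm2a had 305, 226, 296, and 208 CPM in WT pre-RPMs and 330.1, 309.5, 363, and 319.7 CPM in those labelled IL1RL1-/- (log2 difference 0.35, SE 0.12, adjusted p = 0.347), with no overlap but without passing, and passed with the mouse number as a block (0.37, edgeR's adjusted p = 0.0425). Ctsd had the lowest adjusted p in pre-RPMs (-0.40, SE 0.13, adjusted p = 0.3), with groups that overlapped. Mitf had 35.8, 27.1, 36.1, and 27.2 and 25.8, 29.3, 36.4, and 28.7 CPM in RPMs of the 2 genotypes (log2 difference -0.08, SE 0.14, adjusted p = 0.962), and Tfeb 27.3, 33.4, 30.7, and 31.2 and 31.8, 29.3, 30.5, and 21.7 CPM (-0.12, SE 0.13, adjusted p = 0.904).

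**Figure D5:**
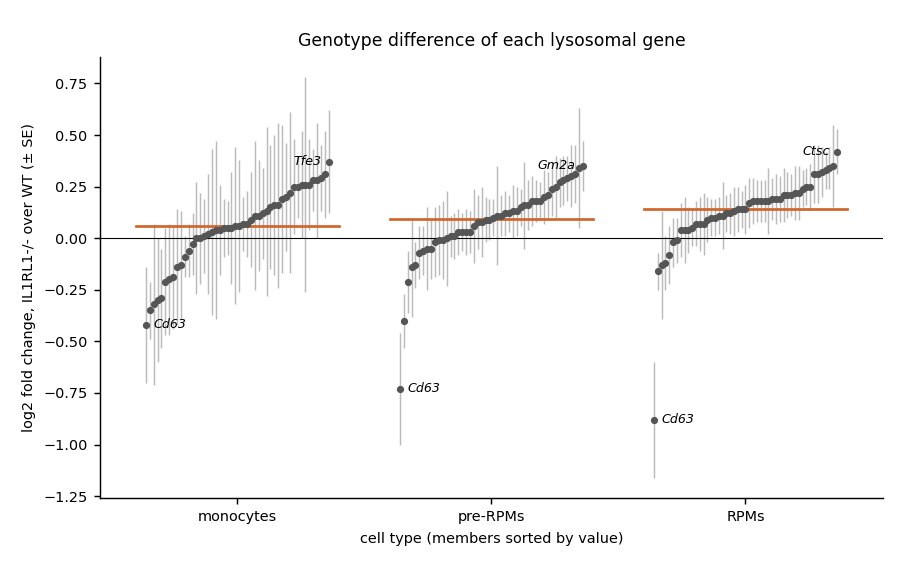
Log2 fold change of each lysosomal gene in libraries labelled IL1RL1-/- over WT libraries in monocytes (48 genes), pre-RPMs (48), and RPMs (49), sorted within each cell type, with bars for the SE and orange lines at the medians of 0.06, 0.10, and 0.14. No gene passed an adjusted p under 0.05, and Cd63 was lowest in all 3 cell types.

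Ctsk and Ctss lie next to each other on chromosome 3 of GRCm38 (95499256 to 95509362 and 95526786 to 95556403, both on the plus strand), and the 2 genes that follow, Hormad1 and Golph3l, differed between genotypes. Golph3l (95588934 to 95619247) had 8.89, 8.95, 11.5, and 12.5 CPM in WT RPMs and 2.69, 2.29, 3.51, and 3.19 CPM in RPMs labelled IL1RL1-/-, with edgeR's adjusted p of 0.00187 in RPMs, 1.56e-05 in pre-RPMs, and 0.0219 in monocytes. Hormad1 (95559677 to 95587671) had 0 to 2 counts in each WT library and 10 to 45 in each library labelled IL1RL1-/-. Ctss did not pass in any of them, with log2 differences of 0.03 (SE 0.40) for monocytes, 0.03 (SE 0.10) for pre-RPMs, and 0.04 (SE 0.13) for RPMs, and Ctsk was too low to be tested. The nearby genes Arnt, Ensa, and Mcl1 did not pass in any cell type (edgeR's adjusted p of 0.884 or above).

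Other lysosomal genes were followed in 6 lists of 90 genes that share no member with the 50. From WT pre-RPMs to RPMs, 18 of 77 tested were higher and 3 lower, beside 14.0% and 10.7% of all genes, and in the mice labelled IL1RL1-/- 18 of 78 were higher and 2 lower, beside 14.5% and 11.5%. Between genotypes, none of the 78, 75, and 78 genes tested in monocytes, pre-RPMs, and RPMs passed edgeR's test, beside 0.0614%, 0.552%, and 0.233% of all genes. Of 11 genes that sort hydrolases to the lysosome by mannose 6-phosphate, 3 rose and the median log2 fold change was -0.03. The largest changes were those of the receptor gene Igf2r (5.35, 5.25, 6.62, and 5 CPM in WT pre-RPMs and 36.6, 34, 33.9, and 49.6 in WT RPMs, log2 fold change 2.74, SE 0.17, adjusted p = 1.21e-08) and Sort1 (1.55, SE 0.16, adjusted p = 1.26e-06). Igf2r had 27.8, 32.5, 15.8, and 32.4 CPM in WT monocytes and fell from monocytes to pre-RPMs (log2 fold change -2.29, SE 0.24, edgeR's adjusted p = 0.000379), whereas monocytes and RPMs did not pass (0.48, SE 0.22, adjusted p = 0.0943). Of 16 subunits and partners of the proton pump that acidifies lysosomes, 3 rose and the median log2 fold change was 0.21, with Atp6v0a1 at 1.25 (SE 0.14, adjusted p = 5.23e-06) and Atp6v1d at 1.06 (SE 0.14, adjusted p = 2.75e-05).

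Of 16 further hydrolases tested, 5 rose and 2 fell, with a median of -0.11. Hyal2, a hyaluronidase, had 0.465, 0.263, 0.981, and 1.19 CPM in WT pre-RPMs and 7.83, 4.68, 9.35, and 6.46 CPM in WT RPMs, from counts of 2, 1, 4, and 5 in pre-RPMs. Of 18 transporters and channels tested, 4 rose and 1 fell, with a median of 0.45. Tpcn2, a cation channel of lysosomes, had 9.77, 11, 4.66, and 11.4 and 51.4, 48.2, 33.1, and 45.9 CPM (log2 fold change 2.23, SE 0.22, adjusted p = 8.76e-07). Slc11a1, which moves iron and manganese out of the phagosome, had 57.9, 48.1, 52.5, and 57.9 and 241, 188, 273, and 244 CPM (log2 fold change 2.08, SE 0.14, adjusted p = 1.59e-08). In the signalling list, 3 of 14 rose and the median was 0.30, with Tfec, a relative of Mitf, at 2.33 (SE 0.21, adjusted p = 5.45e-07) and Rragd, a GTPase that docks mTORC1 on the lysosome, at 1.31 (SE 0.23, adjusted p = 0.000322). Of 9 cathepsin inhibitors, 2 were tested (median -0.22) and none was called by edgeR from WT pre-RPMs to RPMs.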

How the data were processed

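RNA-seq was run on 3 cell populations sorted from individual mice, 1 library per cell type and mouse. The authors made strand-specific total RNA libraries, removed adapters with cutadapt, mapped reads by STAR 2.5.1, and used featureCounts 1.6.2 to count read pairs over exons joined by gene name in the Ensembl 95 annotation of GRCm38. The deposited values are counts per gene, neither normalized nor filtered. A read on exons of 2 genes of the same strand is assigned to neither by this counting. The 24 chromatin accessibility samples of the study were not analysed here. The labels name the cell type, genotype, and mouse number, and no column was left without a sample. The 50 genes, the roles, the other lists, and the named genes were chosen with earlier results of these data known.

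Groups were compared on all genes in edgeR 4.0.16 in R 4.3.3 (TMM, filterByExpr, quasi-likelihood F test, Benjamini-Hochberg adjustment). A cell type difference was called where the adjusted p was under 0.01 and the log2 fold change beyond 1 in size, genotypes and interactions at an adjusted p under 0.05, and the SE was derived from the F statistic. CPM used TMM factors over all libraries (0.797 to 1.38). A count of 3, or 0.449 to 0.893 CPM, was treated as not told apart from 0. All 3 cell types of a mouse share its number within a genotype, so the mouse number was tried as a block. The calls reported used no block, and same-numbered mice of the 2 genotypes are different animals. Deviations from group means were correlated between libraries with the same number, and a pair under 0.1 was counted as unpaired. Between genotypes, r was 0.118 to 0.452 in monocytes, 0.149 to 0.182 in RPMs, and 0.0452 to 0.155 in pre-RPMs. Between monocytes and pre-RPMs, r was -0.0394 to 0.116 in WT mice and 0.126 to 0.306 in mice labelled IL1RL1-/-. Between pre-RPMs and RPMs, r was 0.0639 to 0.139 and 0.0943 to 0.142, and between WT monocytes and RPMs 0.0349 to 0.156. All pairs of monocytes and pre-RPMs labelled IL1RL1-/- were above 0.1, though the calls reported there used no block. With the block, Psap was added there, as stated above. The mean r was highest between genotypes in monocytes, at 0.257, although these are different animals. Its cause was not tested. No 2 libraries of a group were identical (36 pairs).

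Values in every library are given for the transcription factors, for the 3 members of each role with the largest called change from WT pre-RPMs to RPMs, for members called from WT monocytes to pre-RPMs, for members of the Ctss locus, and for the 3 highest per length. Ctsc, Cd63, and other genes with values were added after their values were seen, and a gene of the other lists that the rule names is not reported here. The fits were tested on simulated counts with known changes. The alternatives were DESeq2 1.42.0, size factors by RLE, no filter beyond 1 count per gene, a minimum of 10 counts in each library, all 24 libraries in 1 fit, no Gm42418, the mouse block, glmTreat, each library left out in turn, and, chosen after seeing the data, the monocytes of mice 1 and 2 or the RPMs of mice 3 and 4 left out. Figures were drawn with matplotlib 3.10.9 in Python 3.11.15.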

Additional observations from a re-analysis of the deposited data

Results flagged for a closer look

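In 132 groups of 4 libraries (22 named genes in 6 groups), 7 values stood apart from the other 3 by Dixon's test, where chance gives about 6.6. Arsb in RPMs of WT mouse 2 was 16.7 CPM, against 7.39 to 8.82 in the other mice. Tfe3 in monocytes of WT mouse 2 was 14.6 CPM, against 23.9 to 24.7. Gaa in monocytes of WT mouse 3 was 19.3 CPM, against 11.3 to 12.6. Lipa in pre-RPMs of WT mouse 3 was 62.5 CPM, against 47.6 to 49.3. Naglu in monocytes of mouse 4 labelled IL1RL1-/- was 3.29 CPM, against 6.72 to 7.13. Ctsk in RPMs of mouse 1 was 0.635 CPM in WT (3 counts) and 0.448 CPM in the library labelled IL1RL1-/- (2 counts), both at or under the level not told apart from 0.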

How the results depend on the processing

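The 53 calls of genes named by the rule given above kept their direction under each alternative. Of these, 44 passed in all in which they were tested (Ctsf, and Acp5 in mice labelled IL1RL1-/-, fell under the minimum of 10 counts). The others were lost with glmTreat, and Lgmn and Acp2 from monocytes to pre-RPMs labelled IL1RL1-/- also without the monocytes of mice 1 and 2. Outside the rule, from pre-RPMs to RPMs, glmTreat also lost Idua and Ctsh in WT mice. It lost Asah1, Glb1, and Neu1 in mice labelled IL1RL1-/-. Losses of Ctsl, Glb1, Asah1, and Neu1 without single libraries are given above. From WT monocytes to pre-RPMs, the count of higher genes was 0, and was 1 with DESeq2, with all libraries in 1 fit, and with the mouse as a block, 3 with every gene of at least 1 count, and 0 to 10 when single libraries were left out, with 10 without monocytes of mouse 3. With glmTreat the single lower gene was lost (0). In the mice labelled IL1RL1-/-, the 3 higher genes became 0 with glmTreat and 0 without the monocytes of mice 1 and 2, and ranged between 2 and 7 when 1 library at a time was dropped, at 7 without monocytes of mouse 3, and the lower gene was lost with glmTreat (0). The 3 lower genes from WT pre-RPMs to RPMs became 1 with glmTreat, which tests against a fold of 2. Between genotypes in pre-RPMs, 1 gene, Gm2a, passed with the mouse number as a block (0.37, edgeR's adjusted p = 0.0425), where the correlations of same-numbered libraries were all above 0 but not all above 0.1 (0.0452 to 0.155), and the block changed no genotype call in other cells. The causes of these shifts were not tested. Summed levels scaled as TPM gave ratios of 1.03, 2.07, and 1.89, as stated above. Single genes were not tested on this scale. Calls near the fold threshold, such as the falls of Ctsh and Gm2a in WT RPMs, could depend on it. Over all alternatives, all genes called ranged from 117 to 1094 from WT monocytes to pre-RPMs (396 as reported), from 1467 to 3411 from pre-RPMs to RPMs (2776), from 1470 to 3703 from monocytes to RPMs (2769), and from 178 to 1060 and 1542 to 3740 in the mice labelled IL1RL1-/- (543 and 2973). For genotypes they ranged from 1 to 139 in monocytes (7), 17 to 265 in pre-RPMs (59), and 19 to 272 in RPMs (26), and for the interactions from 0 to 78 (0) and 3 to 224 (13). The 4 mice per group and a median of 4728764.5 counts per library limit what could be seen for genes of few counts, such as Ctsk and, in monocytes and pre-RPMs, Ctsf.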
